A study of Mus musculus with 30 samples.

Results

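Genes of the hypoxia response and of general glycolysis were followed through muscle and bone differentiation of mouse C2C12 cells. A list of 38 genes was set by name, and each gene was read from the probe set whose only symbol in the platform table was that gene. Where several such probe sets were present, the one with the highest mean over all arrays was used. In this way 35 of the 38 genes were read, out of 18194 genes with a probe set of their own and 45101 probe sets on the array. *Bnip3l* was not read because its probe sets carry several symbols, and *Gpi1* and *Eno1* were not read here for want of a probe set with that symbol alone.

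C2C12 cells are mouse myoblasts that fuse into myotubes when serum is lowered and that turn towards bone-forming cells when bone morphogenetic protein 2 (BMP2) is added. Both lines used here came from lentiviral transduction followed by sorting for copGFP, and each line is 1 such sorted population. C2C12-pMirn378 cells carry a construct with the miR-378 precursor, whereas C2C12-pMirn0 control cells carry the parent vector. Triplicate RNA samples on Affymetrix 430 2.0 arrays cover 10 groups, 30 arrays in all. For each line these groups are cells at d0, cells at d3 and d6 of low-serum differentiation without BMP2 (untreated), and cells at d3 and d6 of the same medium with 300 ng/ml BMP2. Every cell in every group, the controls included, therefore carries a lentiviral vector with copGFP.

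Cells respond to low oxygen through hypoxia-inducible factors, whose alpha subunits (*Hif1a*, *Epas1*) are marked for degradation by prolyl hydroxylases of the *Egln* family when oxygen is plentiful. Stabilised factors raise the transcription of genes for glucose uptake, glycolysis, lactate export, angiogenesis and mitochondrial turnover, and of the *Egln* genes themselves. Because this control acts on the protein, RNA on an array reads only part of the pathway. Glycolytic enzymes often come in several isoforms, with a muscle isoform that takes over from a more general one as myoblasts become myotubes.

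Hypoxia-inducible factors bind DNA at a short core, searched here as ACGTG and GCGTG on both strands of the RefSeq promoters of mouse build GRCm38.p6, each reaching from 250 bases before to 50 bases after a transcript start. Promoter entries were present for 33 of the 38 genes, 44 promoters in all. ACGTG lay in 24 of these 44 (54.5%) against 19.6% of all 32851 promoters, and GCGTG in 27 (61.4%) against 32.4%. Promoters of the same gene can overlap and share a match, as for *Aldoa*. Counted by gene, 22 of the 33 held ACGTG and 23 held GCGTG. The genes were listed by name for these pathways and base composition was not matched, so these shares test nothing. Stretches of 120 bases before the start are shown for 6 members to which the results below return. *Egln3* and *Pgam1* moved with BMP2 in both lines. For *Bnip3*, *P4ha2* and *Slc2a1* a different response to BMP2 in the lines passed the thresholds used below, with limits given there. *Ldha* holds the most matches. Capitals mark ACGTG or its reverse complement CACGT. Overlapping matches on both strands read as CACGTG. A match describes the letters only and does not show binding.
Egln3, chr12:54204005-54204124, minus strand: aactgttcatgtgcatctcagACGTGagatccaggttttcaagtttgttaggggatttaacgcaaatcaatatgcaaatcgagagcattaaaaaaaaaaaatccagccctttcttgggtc
Pgam1, chr19:41911699-41911818, plus strand: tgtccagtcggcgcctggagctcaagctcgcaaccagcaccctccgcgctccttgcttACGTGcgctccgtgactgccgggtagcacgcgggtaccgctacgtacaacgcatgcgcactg
Bnip3, chr7:138909552-138909671, minus strand: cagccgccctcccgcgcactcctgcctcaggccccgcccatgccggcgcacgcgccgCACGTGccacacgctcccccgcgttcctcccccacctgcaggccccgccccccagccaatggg
P4ha2, chr11:54100788-54100907, plus strand: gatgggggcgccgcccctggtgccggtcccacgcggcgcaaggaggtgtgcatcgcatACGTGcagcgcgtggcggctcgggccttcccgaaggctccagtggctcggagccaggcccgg
Slc2a1, chr4:119108625-119108744, plus strand: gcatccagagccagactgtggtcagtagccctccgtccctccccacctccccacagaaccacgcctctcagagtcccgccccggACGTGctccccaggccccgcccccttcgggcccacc
Ldha, chr7:46845657-46845776, plus strand: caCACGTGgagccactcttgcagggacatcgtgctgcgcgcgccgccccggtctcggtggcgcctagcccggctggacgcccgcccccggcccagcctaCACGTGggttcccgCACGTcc

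Values are intensities as deposited, given below as the value on each array or as average expression value (AEV) ± SD of 3 arrays, and a log2 ratio compares groups for 1 probe set. Values of different probe sets are not comparable. Over all probe sets the median value was 76.5, and array medians lay between 68.0 and 82.7. Replicates of brighter probe sets (mean at or over that median) varied by a median log2 SD of 0.145, and those of dimmer ones by 0.846. Of the 35 members, 28 stayed at or above that median in all 10 groups. *Epas1*, *Adm*, *Slc2a3*, *Aldoc*, *Pfkfb3* and *Ankrd37* fell below it in some groups and *Slc16a3* in all, so that changes in these genes are less well measured.

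The labelled course of differentiation was visible in the marker genes. All 8 muscle markers rose in untreated C2C12-pMirn0 cells, and their summed value went from between 14920 and 15650 at d0 to between 102100 and 113700 at d6. With BMP2 the 8 muscle markers lay below untreated cells in both lines at both days (sums of 4593 to 11160 against 86590 to 113700). Of 6 bone markers 5 were higher with BMP2, except in C2C12-pMirn0 at d6, where 3 were (sums of 6035 to 15320 against 990 to 2397), and 2 or 3 of 5 adipocyte markers were higher in each comparison. Cell cycle markers were higher with BMP2 at d3 (2 of 5 in C2C12-pMirn0, 5 of 5 in C2C12-pMirn378) and lower at d6 (3 of 5 and 4 of 5). No marker was at 0 on any array. RNA from mixed cells cannot tell fewer cells of a type from less RNA per cell. The ratio of the 3′ to the 5′ *Gapdh* control probe set, a sign of RNA quality, lay between 0.692 and 0.803 on all BMP2-treated arrays and between 0.825 and 0.878 on all others. These shifts in cell type and in the *Gapdh* ratio accompany every BMP2 result below, and their part in those results was not tested.

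A gene was called higher or lower at an adjusted p (Benjamini-Hochberg over all probe sets, limma) under 0.005 together with a log2 ratio beyond 0.6, and "rose", "fell" or "called" below means just that. For control differentiation the adjusted p is that of d6 over d0, and the log2 ratio is the mean of the d3 and d6 ratios. In untreated C2C12-pMirn0 cells 8 of 35 members rose (22.9%, against 11.5% of all genes) and 10 fell (28.6%, against 11.7%). Their median log2 ratio was -0.03, and that of all genes was -0.04. With BMP2, 11 members rose (11.6% of all genes) and 6 fell (10.2%), with a median of 0.14 against -0.00. Among the 10969 genes whose mean reached the median value, 17.8% rose and 18.5% fell untreated, with 8 and 10 of the 32 members in that class. With BMP2, 18.2% of these genes rose and 16.2% fell, with 10 and 6 of the 32 members. Both courses share the d0 arrays. Members thus moved in both directions. Relative to the C2C12-pMirn0 d0 mean, the mean log2 ratio of the 35 members on an array was -0.08 to 0.06 at d0, -0.22 to 0.08 in untreated C2C12-pMirn0 cells at d3 and d6, and 0.22 to 0.31 with BMP2.

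**Figure D1:**
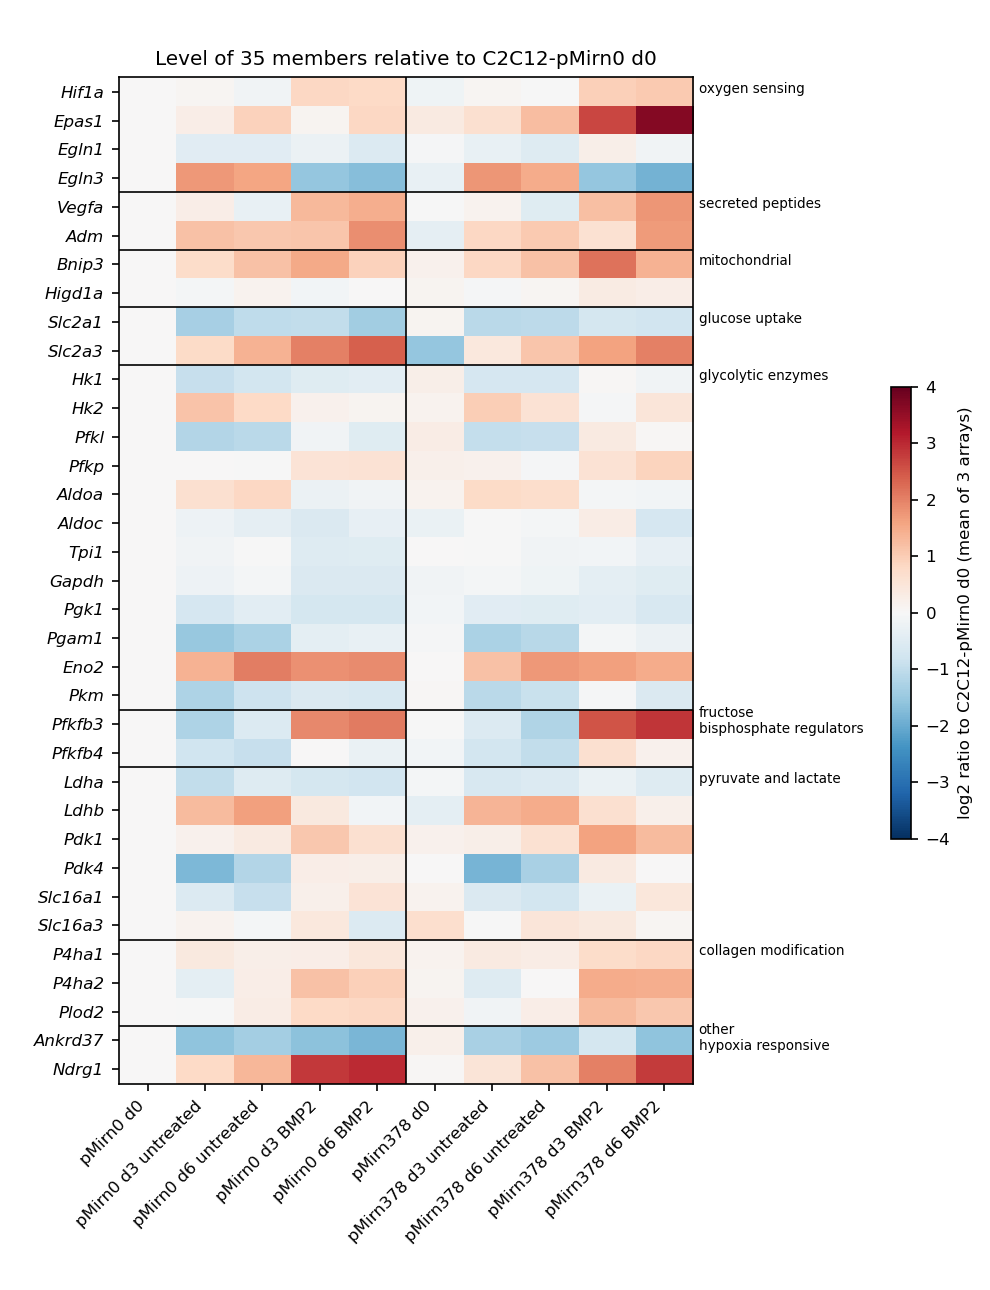
Colour gives the log2 ratio of each of the 35 members (rows, grouped by role) to C2C12-pMirn0 d0, as the mean of 3 arrays, for the 10 groups (columns, C2C12-pMirn0 left of the line and C2C12-pMirn378 right of it). Within a line the untreated and BMP2 columns differ for *Egln3*, *Vegfa*, *Pfkfb3*, *Pdk4*, *Pgam1* and *Ndrg1*. The darkest cell is *Epas1* in C2C12-pMirn378 d6 BMP2, read from low values.

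When BMP2-treated cells were set against untreated cells of the same line and day, more members rose than fell each time. In C2C12-pMirn0, 14 members rose at d3 (40%, against 11.2% of all genes) and 4 fell (11.4%, against 8.48%). At d6, 10 rose (11.0% of all genes) and 4 fell (10.6%). In C2C12-pMirn378, 14 rose at d3 (13.3% of all genes) and 4 fell (9.84%), and at d6, 13 rose (10.8%) and 3 fell (11.1%). Median log2 ratios of the members in the same order were 0.45, 0.20, 0.51 and 0.52, against 0.05, 0.08, -0.03 and -0.03 for all genes. These comparisons share no arrays. *Hif1a*, *Vegfa*, *Pfkl*, *Pgam1*, *Pfkfb3*, *Pfkfb4*, *Pdk4*, *P4ha2* and *Ndrg1* rose in all 4, which makes 9 of 35 members against 5.36% of all genes. *Egln3*, *Aldoa* and *Ldhb* fell in all 4, 3 members against 5.53% of all genes. With only the compared groups in each fit, 6 were higher in all 4 (*P4ha2*, *Pfkfb4* and *Pfkl* dropped out) and 1, *Egln3*, was lower. Median scaling and quantile normalization each left 7 higher in all 4, without *Pfkfb4* and *Pfkl*. Averaging probe sets also took *Pfkl* and *Pfkfb3* out of the higher set and *Aldoa* out of the lower. A further 15 members were called in none, a count for which the share of all genes was not taken. Members are brighter than most genes, and bright genes are called more often: among the 10969 genes whose mean reached the median value, 17.7% rose in C2C12-pMirn0 at d3, with 14 of the 32 members in that class. Scaling the arrays by their medians moved the median of all genes in C2C12-pMirn0 at d3 by -0.10.

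**Figure D2:**
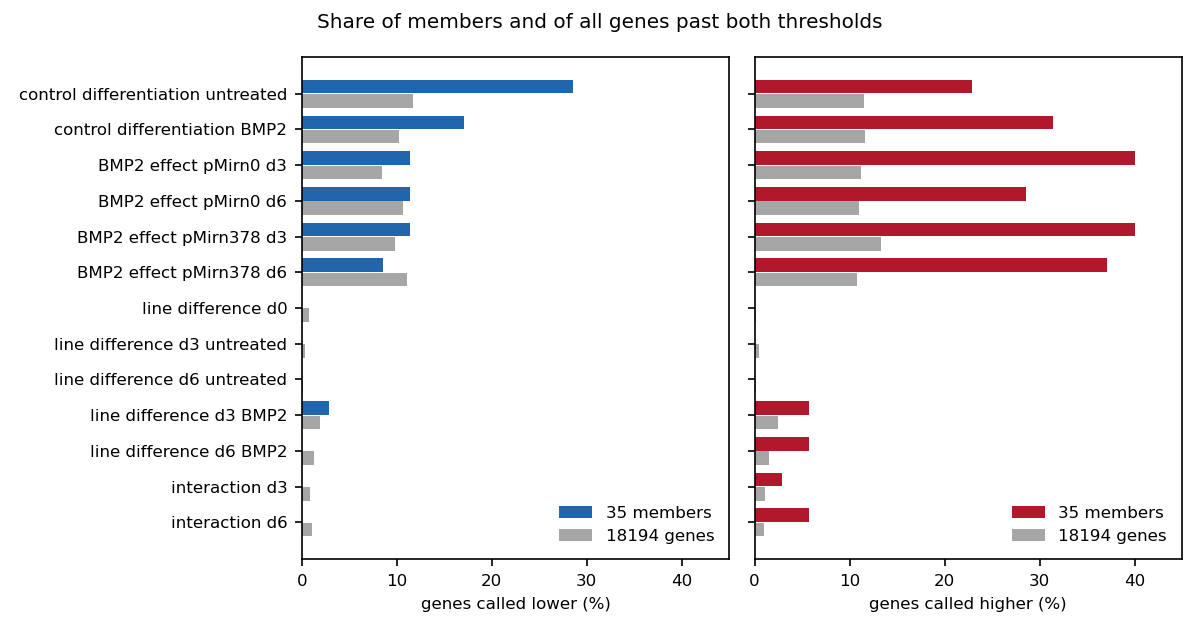
Bars give the percentage of the 35 members (coloured) and of all 18194 genes (grey) called lower (left) or higher (right) in each comparison. Members exceed all genes on the higher side of every BMP2 effect, 28.6% to 40% of members against 10.8% to 13.3% of genes, whereas on the lower side they are 8.57% to 11.4% against 8.48% to 11.1%.

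**Figure D3:**
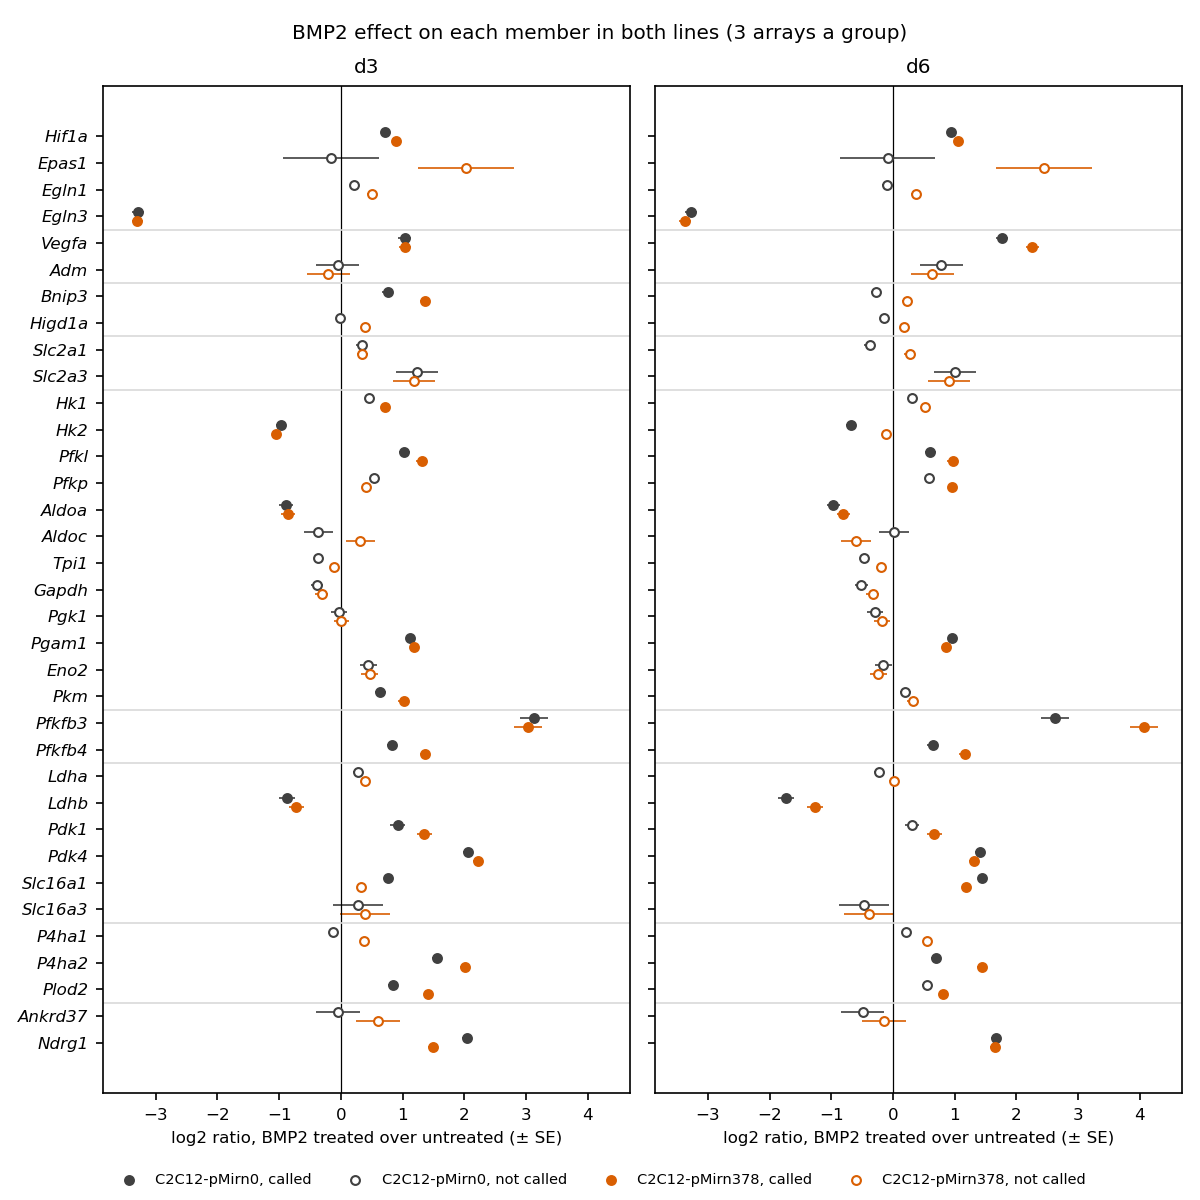
Each point is the log2 ratio of BMP2-treated over untreated cells for a member, with its SE as a bar, in C2C12-pMirn0 (grey) and C2C12-pMirn378 (orange) at d3 (left) and d6 (right), filled where called. *Egln3* lies between -3.37 and -3.27 in all 4 comparisons, and *Pfkfb3* lies farthest to the right, between 2.62 and 4.07.

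Among the genes of oxygen sensing, *Egln3*, which encodes the prolyl hydroxylase PHD3, moved in opposite directions with and without BMP2. At d0 its values in C2C12-pMirn0 cells were 1060, 1014 and 1076. They were 2982, 3373 and 3026 in untreated cells at d6 and 306, 322 and 342 in BMP2-treated cells at d6. None of these groups overlapped, with untreated cells highest and BMP2-treated cells lowest. Over d3 and d6 *Egln3* rose by 1.65 without BMP2 (adjusted p = 4.92e-12) and fell by 1.63 with it on the log2 scale (adjusted p = 1.43e-12). At d3 the values were 3449, 3512 and 3456 untreated and 322, 439 and 321 with BMP2. BMP2-treated cells were thus lower than untreated cells by a log2 ratio of -3.28 ± 0.095 (SE) at d3 and -3.27 ± 0.095 at d6 in C2C12-pMirn0, and of -3.30 and -3.37 in C2C12-pMirn378. A second *Egln3* probe set was called in the same directions.

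*Hif1a* RNA, for the inducible alpha subunit itself, was higher in BMP2-treated cells. Its 3 values at d6 in C2C12-pMirn0 were 5633, 5526 and 5937 untreated and 10609, 11119 and 10986 with BMP2. All treated arrays lay above all untreated ones, and the log2 ratio was 0.94 ± 0.054 (adjusted p = 2.28e-12). At d3 it was 0.72, and in C2C12-pMirn378 it was 0.89 at d3 and 1.05 at d6. *Egln1*, for the prolyl hydroxylase PHD2, was not called in control differentiation or with BMP2, with AEVs between 778 and 1336 over all groups. *Epas1*, which encodes HIF-2α, is taken up with the comparison of the lines.

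Of the secreted peptides, *Vegfa*, the angiogenic growth factor, rose with BMP2. At d6 in C2C12-pMirn0 its values were 1899, 1689 and 1814 untreated and 6177, 5659 and 6541 with BMP2, groups that did not overlap (log2 ratio 1.76 ± 0.0998, adjusted p = 1.80e-12). In untreated cells its log2 ratio to d0 was 0.25 at d3 and -0.31 at d6, neither of which was called. *Adm*, for the vasodilator peptide adrenomedullin, was read near or below the median value. Its AEV was 34.4 ± 1.21 at d0 and 124 ± 5.29 at d6 with BMP2, and it was called higher only in control differentiation with BMP2 (1.49). In the mitochondrial group *Bnip3*, a receptor for mitophagy, rose in C2C12-pMirn0 from d0 under both treatments (0.96 and 1.21), and *Higd1a*, a protein of the respiratory chain, was called in no comparison.

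Glucose transporters moved in opposite directions from d0. *Slc2a1* (GLUT1) had values of 4294, 4239 and 4218 at d0 in C2C12-pMirn0, and of 1653, 1684 and 1521 at d6 with BMP2. It fell by 1.19 on the log2 scale with BMP2 (adjusted p = 1.44e-11) and by 1.18 without, and none of the groups at d3 or d6 reached d0. *Slc2a3* (GLUT3) went from 52.1, 20 and 41.2 at d0 to 190, 163 and 203 at d6 with BMP2. Its groups did not overlap, and it rose by 2.20 (adjusted p = 4.62e-06), although it started below the median value and the mean over all its probe sets gave 0.94, which was not called. Without BMP2 it rose by 1.09 (adjusted p = 0.00201), a call lost without d0 array 2, d6 array 2 or d6 array 3 (adjusted p of 0.00666 to 0.0244, log2 ratio 0.68 without d0 array 2). It was also lost with values under 50 set to 50 (0.55), with probe sets averaged (0.77) and with only the compared groups in the fit.

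Of 12 glycolytic enzymes, 3 rose and 4 fell in untreated C2C12-pMirn0 cells, and 1 rose and 2 fell with BMP2, beside the shares of all genes given above (11.5% and 11.7% untreated, 11.6% and 10.2% with BMP2). *Eno2*, the neuronal enolase isoform, rose under both treatments. Its values were 121, 76.8 and 106 at d0 and 396, 437 and 414 at d6 untreated, all of the latter being higher (log2 ratio 1.72 over d3 and d6, adjusted p = 3.03e-11). *Pgam1*, the non-muscle phosphoglycerate mutase, went from 10200, 11356 and 10287 at d0 to 4346, 4270 and 4587 at d6 untreated. The groups did not overlap, and it fell by 1.39 on the log2 scale (adjusted p = 1.14e-13). With BMP2 it was read at 8457, 8719 and 8510 at d6, above all untreated arrays at that day and below all d0 arrays. *Pfkl* (liver phosphofructokinase), *Pkm* (pyruvate kinase) and *Hk1* (hexokinase 1) also fell in untreated cells, by 1.13, 1.03 and 0.82.

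*Hk2*, the hexokinase of insulin-sensitive tissues, and *Aldoa*, the muscle aldolase, took the reverse course. *Hk2* values at d3 in C2C12-pMirn0 were 3644, 3936 and 3409 untreated and 1897, 1831 and 1871 with BMP2. All treated arrays were lower, and *Hk2* fell by 0.97 on the log2 scale (SE 0.072, adjusted p = 2.28e-10). Its log2 ratio was -0.68 at d6 in C2C12-pMirn0 and -1.045 at d3 in C2C12-pMirn378, both called. In C2C12-pMirn378 at d6 it was not called, and the arrays overlapped (2464, 2751 and 2278 untreated, 2331, 2320 and 2256 with BMP2). *Aldoa* values at d6 were 23764, 21511 and 16262 untreated and 10287, 9950 and 10900 with BMP2, again without overlap (log2 ratio -0.97, adjusted p = 1.88e-07), and at d3 they were 18297, 16820 and 18644 against 10504, 9371 and 9180 (log2 ratio -0.89). Of 5 *Aldoa* probe sets, 3 were called lower at d6, and the others gave -0.57 and -0.21. *Gapdh*, *Tpi1* and *Aldoc* were called in no comparison, and *Pgk1* only in control differentiation with BMP2, where it fell by 0.71. Quantile normalization or a fit of only the compared groups lost the *Pgk1* call. *Gapdh* was read from the array's 5′ control probe set, and its 3′ control probe set was called lower with BMP2 in C2C12-pMirn0 at d6 (-0.71 against -0.51 for the 5′ one).

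*Pfkfb3* and *Pfkfb4* encode enzymes that set the level of fructose 2,6-bisphosphate, the activator of phosphofructokinase. *Pfkfb3* values at d3 in C2C12-pMirn0 were 31.4, 45.9 and 42.9 untreated and 293, 408 and 348 with BMP2. At d6 they were 55.6, 56.2 and 81.7 against 423, 347 and 404. Treated and untreated arrays stood far apart at both days, with log2 ratios of 3.13 ± 0.229 (adjusted p = 1.76e-10) and 2.62 ± 0.229 (adjusted p = 3.09e-09). Untreated values lay around or below the median, so the size of this ratio is uncertain, and with values under 50 set to 50 or probe sets averaged it was still called in C2C12-pMirn0. In C2C12-pMirn378 at d3, averaging probe sets took it from 3.03 to 1.38 and the call was lost (adjusted p = 0.0119). From d0 (109, 99.4 and 71.8) it rose by 2.00 with BMP2. *Pfkfb4* rose by 0.83 with BMP2 at d3 and by 0.64 at d6 in C2C12-pMirn0. The d6 call was lost without BMP2 array 3 (log2 ratio 0.59), with median scaling and with quantile normalization. A fit of only the compared groups lost both calls.

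Among the genes of pyruvate and lactate, *Pdk4*, a kinase that shuts off pyruvate dehydrogenase, fell during muscle differentiation and not with BMP2. Its values in C2C12-pMirn0 were 1770, 1590 and 1660 at d0 and 709, 699 and 813 at d6 untreated. All d6 arrays were lower, and *Pdk4* fell by 1.48 over d3 and d6 on the log2 scale (adjusted p = 3.68e-11). At d3 it was read at 474, 528 and 457 untreated and at 2038, 1989 and 2029 with BMP2, without overlap (log2 ratio 2.06 ± 0.080, adjusted p = 2.65e-15). *Ldhb*, the heart-type lactate dehydrogenase, rose from 294, 304 and 305 at d0 to 870, 1028 and 914 at d6 untreated, with no overlap (1.45, adjusted p = 3.45e-10). With BMP2 it was read at 291, 296 and 258 at d6, below all untreated arrays (log2 ratio -1.73 ± 0.127, adjusted p = 1.52e-10). *Ldha*, the muscle-type subunit, fell by 0.75 without and by 0.73 with BMP2 from d0. Its call with BMP2 was lost with quantile normalization, and that without BMP2 with only the compared groups in the fit. *Slc16a1* (MCT1), a lactate and pyruvate carrier, fell by 0.73 in untreated cells and was higher with BMP2 at d6 by 1.44. Averaged with a second, dim probe set (mean 37.8), *Slc16a1* was called in no comparison. *Slc16a3* (MCT4) was below the median value throughout and was never called.

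Of 3 enzymes that modify collagen, 2 rose in control differentiation with BMP2, where 11.6% of all genes rose. *P4ha2*, a prolyl 4-hydroxylase subunit, and *Plod2*, a lysyl hydroxylase, rose by 1.06 and 0.82, while neither was called in untreated cells, and *P4ha1* was called in no comparison. The remaining 2 members moved apart. *Ndrg1*, a stress-responsive gene, was read at 1017, 922 and 1086 at d0 and at 8094, 7941 and 8014 at d6 with BMP2 in C2C12-pMirn0, where it rose by 2.91 over d3 and d6 (adjusted p = 9.26e-18). Untreated cells at d6 gave 2665, 2455 and 2480, above d0 and below BMP2-treated cells, and BMP2 over untreated was 1.66 ± 0.081 (adjusted p = 1.35e-13). At d3 the values were 1602, 1913 and 1714 untreated and 6953, 7152 and 7318 with BMP2 (log2 ratio 2.04, adjusted p = 4.05e-15). All 5 probe sets of *Ndrg1* were called higher with BMP2 in both lines at both days. *Ankrd37*, an ankyrin-repeat gene, went from 186, 218 and 146 at d0 to 77.4, 73.9 and 62.9 at d6 untreated and 31.3, 61.7 and 66.8 at d6 with BMP2. All later arrays lay below d0, around or under the median value, and *Ankrd37* fell by 1.47 untreated (adjusted p = 0.00390) and by 1.74 with BMP2 (adjusted p = 0.000206). The untreated call was lost on leaving out any of 6 of the 9 arrays, namely d0 array 1 or 2, d3 array 3 or any d6 array (adjusted p of 0.00503 to 0.0222). The replicate block, median scaling, quantile normalization and a fit of only the compared groups also lost it (adjusted p of up to 0.0297).

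**Figure D4:**
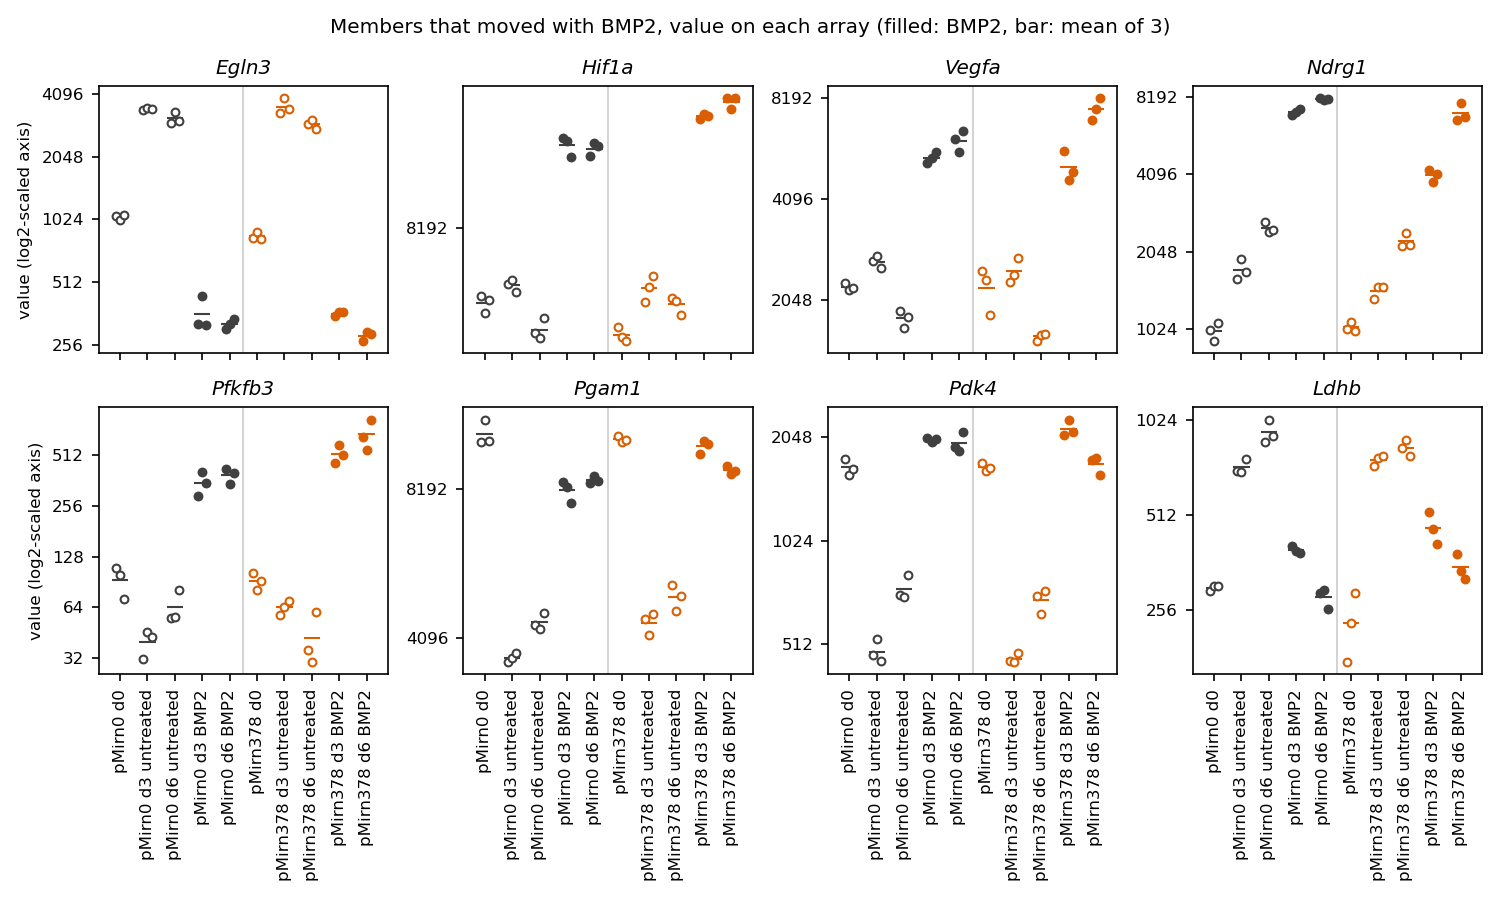
Every dot is the value of 1 array on a log2-scaled axis, with the mean of 3 as a bar, for 8 members over the 10 groups, filled for BMP2-treated cells (grey, C2C12-pMirn0; orange, C2C12-pMirn378). Filled and open dots of the same day do not overlap for any of these members in either line: *Egln3* and *Ldhb* are lower with BMP2, and the other 6 are higher.

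Without BMP2 the lines did not differ in these genes by the thresholds used. No member was called at d0 (0.121% of all genes higher and 0.709% lower), at d3 (0.418% and 0.297%) or at d6 (0.165% and 0.0824%) by limma. At an unadjusted p under 0.05, 6 members were higher and 4 lower in C2C12-pMirn378 at d0, 8 and 2 at d3, and 4 and 6 at d6. No share of all genes at that p was counted, here or below, so such counts show nothing particular to the members. The median difference of the members was 0.04, 0.07 and -0.06 at d0, d3 and d6, against -0.05, 0.02 and 0.02 for all genes. On the log2 scale differences ran from -1.56 to 0.67 at d0, where the lowest was that of the dim *Slc2a3*, a call under some of the alternatives below. The 3′ to 5′ *Gapdh* ratio at d0 was 0.8611 to 0.8782 in C2C12-pMirn378 and 0.8248 to 0.8518 in C2C12-pMirn0, without overlap. In untreated cells at d3 and d6 it overlapped between the lines.

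With BMP2 few members were called between the lines. At d3, 2 members were called higher in C2C12-pMirn378 (2.49% of all genes) and 1 lower (1.87%). At d6, 2 were called higher (1.54%) and none lower (1.32%, with 3 lower at an unadjusted p under 0.05). Median differences of the members were 0.30 at d3 and 0.24 at d6, against -0.01 and -0.02 for all genes, and 27 of 35 members lay above 0 at each day, compared with 49% and 47.3% of all genes. By the adjusted p alone, a count added after the data were seen, 13 members were higher (4.87% of all genes) and 2 lower (4.19%) at d3, and 10 were higher (2.97%) and none lower (2.41%) at d6. Among genes whose mean reached the median value the same shares were 8.0% higher and 6.80% lower at d3, and 4.87% and 3.90% at d6. The 3′ to 5′ *Gapdh* ratio at d3 with BMP2 was 0.7776 to 0.8033 in C2C12-pMirn378 and 0.7314 to 0.7633 in C2C12-pMirn0, without overlap. At d6 with BMP2 it was 0.7285 to 0.7822 and 0.6921 to 0.7585, which overlapped. The part of this ratio in the line differences was not tested. Marker genes also differed between the lines. All 5 cell cycle markers were higher in C2C12-pMirn378 at d3 with BMP2, with sums of 14330 to 14720 against 3477 to 3897 in C2C12-pMirn0. At d6 with BMP2 these sums were 1790 to 2004 against 1904 to 1919, and none of the 5 was called. Bone marker sums were higher in C2C12-pMirn378 at both days (14410 to 15320 against 8368 to 8618 at d3, 11600 to 14210 against 6035 to 6472 at d6). Muscle marker sums were lower at both days, 8149 to 9036 against 10350 to 11160 at d3 and 4593 to 4825 against 6457 to 6947 at d6. Adipocyte marker sums were higher at d3 (13750 to 15150 against 10440 to 11230) and overlapped at d6. In untreated cells, where no member was called, cell cycle sums were also higher in C2C12-pMirn378. They were 3914 to 5172 against 2215 to 2472 at d3 and 3692 to 4533 against 2967 to 3348 at d6. Untreated adipocyte sums overlapped at d3 and were higher at d6 (6400 to 7667 against 3069 to 3378). The part of all these markers in the member differences was not tested.

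*Bnip3* was called higher in C2C12-pMirn378 at d3. Its values with BMP2 were 3608, 3735 and 3574 in C2C12-pMirn0 and 5689, 5785 and 5874 in C2C12-pMirn378, without overlap (log2 difference 0.67 ± 0.083, adjusted p = 5.73e-06). *Pfkfb4* was read at 432, 396 and 437 in C2C12-pMirn0 and at 657, 679 and 590 in C2C12-pMirn378. Every C2C12-pMirn378 array was higher, and the difference of 0.60 ± 0.084 (adjusted p = 2.37e-05) stood so near the size threshold that leaving out C2C12-pMirn0 array 2 or C2C12-pMirn378 array 1 or 2 put it below (0.56 to 0.59). *Ndrg1* went the other way. Its values at d3 with BMP2 were 6953, 7152 and 7318 in C2C12-pMirn0 and 4254, 3828 and 4115 in C2C12-pMirn378, all of the latter lower (log2 difference -0.81 ± 0.081, adjusted p = 2.53e-07). At d6 with BMP2 it was 8094, 7941 and 8014 against 6656, 7741 and 6814, a difference of -0.18 that was not called.

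At d6 with BMP2 *Slc2a1* was read at 1653, 1684 and 1521 in C2C12-pMirn0 and at 2411, 2409 and 2697 in C2C12-pMirn378, without overlap (0.63 ± 0.089, adjusted p = 4.66e-05). *Pdk1*, another kinase of pyruvate dehydrogenase, was read at 1349, 1327 and 1324 and at 1892, 2026 and 2265, with every C2C12-pMirn378 array higher (0.62 ± 0.120, adjusted p = 0.00149). The *Slc2a1* call was lost on size without C2C12-pMirn0 array 3 or C2C12-pMirn378 array 3 (0.57 to 0.58), and the *Pdk1* call without any C2C12-pMirn0 array or C2C12-pMirn378 array 2 or 3 (adjusted p of 0.00543 to 0.0143). When only the 6 arrays of a comparison entered the fit, no member was called between the lines at either day with BMP2. In these fits 18 and 19 members were higher at an unadjusted p under 0.05 and 3 lower at d3, with no share of all genes counted.

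*Epas1* showed the largest ratios between the lines and was not called, and it is given here because of its values. With BMP2 it was read at 10.5, 16.3 and 7.02 at d3 and 46.3, 5.98 and 19.0 at d6 in C2C12-pMirn0. In C2C12-pMirn378 the values were 76.2, 50.7 and 63.0 at d3 and 110, 120 and 151 at d6. All C2C12-pMirn378 arrays with BMP2 exceeded all arrays of every other group, yet the values at d3 lay below the median of all values. The log2 differences were 2.55 ± 0.775 at d3 (adjusted p = 0.0339) and 2.85 ± 0.775 at d6 (adjusted p = 0.0247). With values under 50 set to 50, the d6 difference was 1.33 and was called (limma adjusted p = 2.81e-09). That floor gave every array outside C2C12-pMirn378 with BMP2 the same value, since all of them lay under 50. The small p of that setting therefore does not measure the spread of those arrays, and the call adds no support. The second *Epas1* probe set, dimmer still with a mean of 8.87, gave 0.63 and -0.13.

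**Figure D5:**
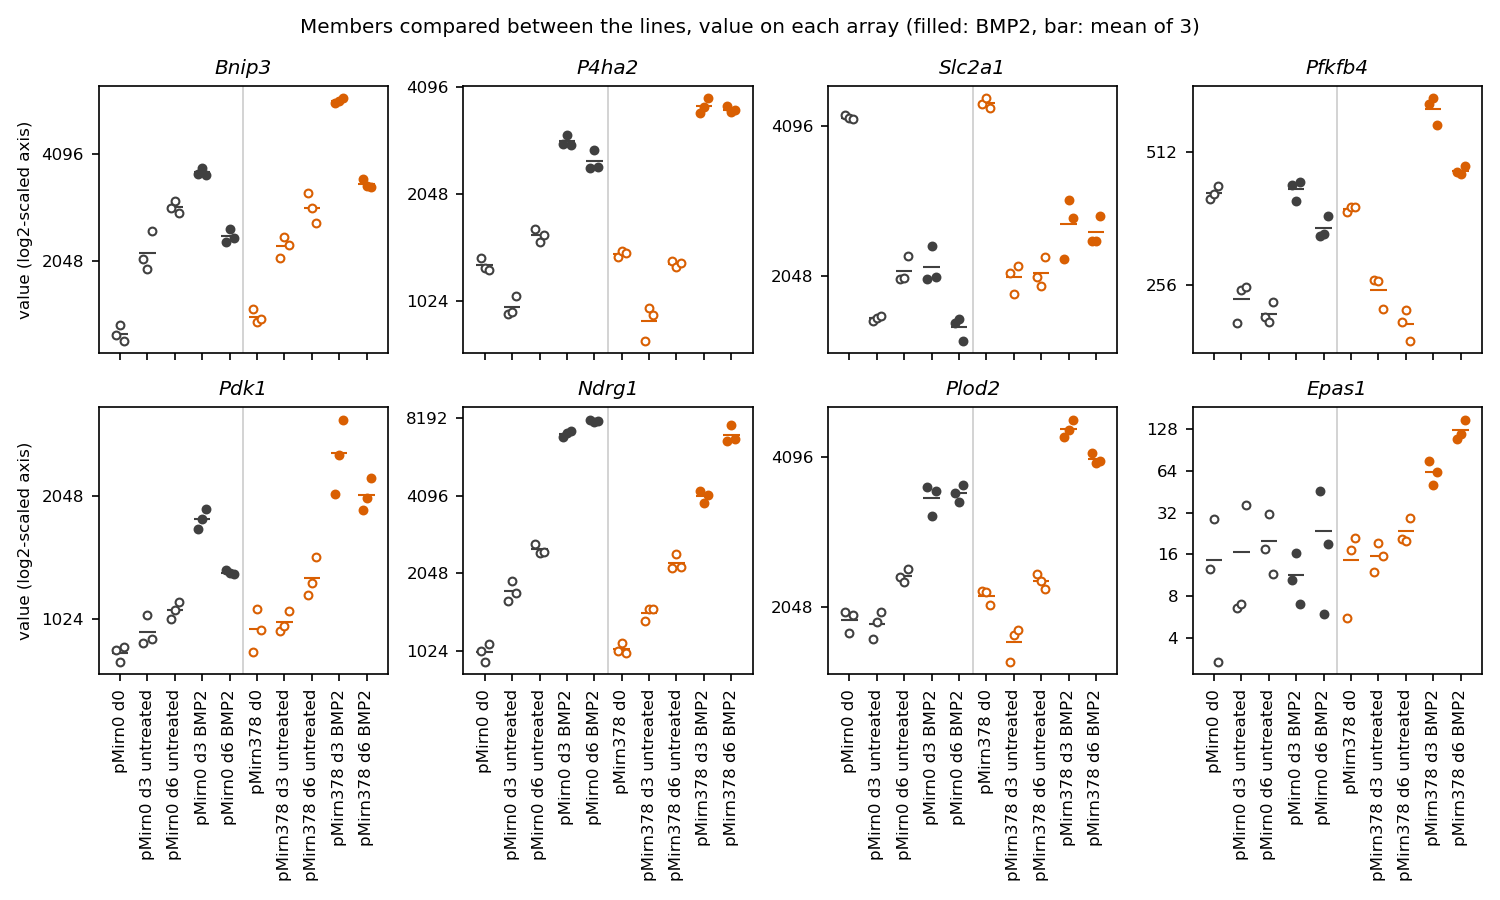
Every dot is the value of 1 array on a log2-scaled axis, with the mean of 3 as a bar, for 8 members over the 10 groups, filled for BMP2-treated cells (grey, C2C12-pMirn0; orange, C2C12-pMirn378). Filled orange dots lie above filled grey dots of the same day for *Bnip3*, *P4ha2*, *Pfkfb4*, *Pdk1*, *Plod2* and *Epas1*. They lie below them for *Ndrg1* at both days, a difference called at d3 only. For *Slc2a1* they lie above at d6 and overlap at d3.

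Whether BMP2 acted differently in the lines was tested as an interaction, the BMP2 log2 ratio in C2C12-pMirn378 minus that in C2C12-pMirn0, which uses the same arrays as the comparisons above. At d3, 1 member was called higher (1.15% of all genes) and none lower (0.874%, with 2 lower at an unadjusted p under 0.05). At d6, 2 were called higher (1.03%) and none lower (1.02%, with 1 lower at an unadjusted p under 0.05). By the adjusted p alone there were 3 higher (1.36%) and 1 lower (1.17%) at d3, and 3 higher (1.26%) and none lower (1.16%) at d6. Medians of the members were 0.15 and 0.26, against -0.03 and -0.05 for all genes.

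The member at d3 was *Bnip3*. Untreated cells gave 2071, 1941 and 2483 in C2C12-pMirn0 and 2089, 2392 and 2280 in C2C12-pMirn378, which overlapped. With the BMP2 values above, the BMP2 log2 ratio was 0.76 in C2C12-pMirn0 and 1.36 in C2C12-pMirn378, a difference of 0.60 ± 0.118 (adjusted p = 0.00332). It stood close to both thresholds, and 10 of 12 fits without 1 array lost the call, with differences of 0.50 to 0.63 and adjusted p of 0.00559 to 0.0123. The call held only without C2C12-pMirn0 untreated array 2 or C2C12-pMirn378 untreated array 2.

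At d6 the members were *P4ha2* and *Slc2a1*. *P4ha2* was read at 1631, 1505 and 1568 untreated and 2419, 2728 and 2447 with BMP2 in C2C12-pMirn0, and at 1326, 1281 and 1312 untreated and 3613, 3486 and 3519 with BMP2 in C2C12-pMirn378. Its C2C12-pMirn378 values were lower than control untreated and higher than control with BMP2, without overlap. The BMP2 log2 ratio was 0.69 against 1.44, a difference of 0.75 ± 0.105 (adjusted p = 0.000105), and each fit without 1 array kept the call. A limma fit of only the compared groups lost it (adjusted p = 0.0103). *Slc2a1* was read at 2025, 2035 and 2243 untreated in C2C12-pMirn0 and at 2044, 1956 and 2240 untreated in C2C12-pMirn378, which overlapped. Its BMP2 log2 ratios were -0.38 and 0.27, neither called, and the difference of 0.64 ± 0.125 was (adjusted p = 0.00333). That call was lost in 10 of 12 fits without 1 array (0.59 to 0.67, adjusted p of 0.00566 to 0.0131), the exceptions being C2C12-pMirn378 untreated array 3 and C2C12-pMirn378 BMP2 array 2. A second *Slc2a1* probe set gave 0.77 and was called as well, and the other gave 0.59 and was not.

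Genes of the same pathways outside the list were read for 48 of 53 names. In untreated C2C12-pMirn0 cells 15 of them rose and 7 fell (11.5% and 11.7% of all genes), and with BMP2 9 rose and 6 fell (11.6% and 10.2%). BMP2 over untreated, 8 rose and 10 fell at d3 (11.2% and 8.48% of all genes) and 9 rose and 12 fell at d6 (11.0% and 10.6%) in C2C12-pMirn0, with medians of -0.06 at both days. In C2C12-pMirn378 12 rose and 9 fell at d3 (13.3% and 9.84%), and 11 rose and 13 fell at d6 (10.8% and 11.1%). *Pfkm*, the muscle phosphofructokinase, rose by 2.80 in untreated cells (AEV 742 ± 26.0 at d0 and 6183 ± 222 at d6) whereas *Pfkl* fell. *Eno3*, the muscle enolase, was lower with BMP2 in C2C12-pMirn0, at log2 ratios of -2.24 at d3 and -2.98 at d6. *Pgam2*, the muscle phosphoglycerate mutase, was singled out after its values were seen: its AEV was 53.9 ± 39.6 at d0, 3891 ± 219 at d6 untreated and 136 ± 10.2 at d6 with BMP2, against the opposite course of *Pgam1*. Mitochondrial glycerol phosphate dehydrogenase, *Gpd2*, fell by 2.21 in untreated cells, and the transferrin receptor *Tfrc* fell by 2.96 with BMP2.

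*Ero1a*, an oxidase of the endoplasmic reticulum, rose by 2.06 from d0 with BMP2 and was higher with BMP2 at d6 in C2C12-pMirn0 by 2.85. *Lox*, which crosslinks collagen, was higher by 1.58 at d3. Between the lines none of the 48 was called at d0 or in untreated cells, 3 were higher and 1 lower at d3 with BMP2 (2.49% and 1.87% of all genes), and 5 were higher and none lower at d6 (1.54% and 1.32%). *Ero1a* was lower in C2C12-pMirn378 at d3 with BMP2 (AEV 1162 ± 112 against 2990 ± 83.6, log2 difference -1.37, interaction -0.99). *Stc2*, a stanniocalcin, was higher at d3 (AEV 1079 ± 245 against 266 ± 20.7, 1.99) and at d6 (412 ± 60.6 against 156 ± 16.7, 1.40), with interactions of 2.06 and 1.29. *Lox* was higher at d6 by 0.76, and the interaction at d6 for *Gys1*, the muscle glycogen synthase, was 0.84.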

How the data were processed

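RNA of triplicate cultures of each group was hybridised to Affymetrix 430 2.0 arrays. The deposited values are intensities on a linear scale, 1 per probe set and array. The authors describe them as made with RMA and quantile normalization in R (R 2.4.1 per the submitters' processing notes). Array medians still differed (68.0 to 82.7) and the lowest value was 0.056, so the arrays do not share a common distribution as that description implies. How the values were made was not resolved, and further scaling was tried as an alternative. Depth has no meaning for arrays, and the number of arrays (3 a group) limits the precision. The symbols came from the platform table: 34958 probe sets have 1 symbol, 932 several and 9211 none.

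Members, lists and tests were chosen with earlier results of these data known. Log2 values of all 45101 probe sets and 30 arrays were fitted with limma 3.58.1 in R 4.3.3, with 1 mean per group, eBayes and Benjamini-Hochberg adjustment within each contrast. Calls took 0.005 as the adjusted p and 0.6 as the smallest log2 ratio in either direction, after the study's methods. Values on each array are given for the 3 called members with the largest ratio in each direction of control differentiation, of the BMP2 effect in C2C12-pMirn0 and of the line difference with BMP2, and for members called in an interaction. Values of *Hif1a*, *Epas1* and *Pgam2* were added after they had been seen. Of the other pathway genes, the 2 called ones with the smallest adjusted p in these comparisons were named. p-values measure the spread between triplicate cultures. No replicates held identical values. Deviations of samples with the same replicate number correlated at a median r of 0.0427 (-0.173 to 0.234 over 135 pairs). Samples with different numbers were not compared in this way, so pairing by number was not excluded. The fit took no account of the numbers except in the replicate block named below. The fit was tested on simulated data. Alternatives were a replicate block, leaving out dim probe sets, fitting the compared groups alone, eBayes with trend and robust estimation, median scaling, quantile normalization, a floor of 50, averaging probe sets and leaving out each array. Columns of other series were not present. Not analysed here were probe sets without a symbol or with several.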

Additional observations from a re-analysis of the deposited data

Results flagged for a closer look

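The interaction term of the limma fit called a different response to BMP2 in C2C12-pMirn378 and C2C12-pMirn0 for 3 members. The BMP2 log2 ratio of *Bnip3* at d3 was larger in C2C12-pMirn378 by 0.60 (adjusted p = 0.00332). That of *P4ha2* at d6 was larger by 0.75 (adjusted p = 0.000105), and that of *Slc2a1* at d6 by 0.64 (adjusted p = 0.00333). Over 20 alternatives the *Bnip3* call was lost in 13, the *Slc2a1* call in 12 and the *P4ha2* call in 1. All 3 calls were lost with only the compared groups in the fit. Cell cycle markers (5 of 5) were called higher in the interaction at d3, and 0 of 5 at d6. Their part in these differences was not tested.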

How the results depend on the processing

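No alternative moved the count of members higher or lower in a single BMP2 effect by more than 1.5 times. Members higher in all 4 BMP2 effects numbered 6 to 10 over 8 alternatives (9 in the report) and those lower 1 to 3 (3), with *Hif1a*, *Vegfa*, *Pgam1*, *Pdk4*, *Ndrg1* and *Egln3* called in each. For control differentiation with BMP2, quantile normalization left 3 members lower in place of 6, without *Pgk1*, *Pkm* and *Ldha*. Counts between the lines were small and moved more. Fitting only the groups compared left 0 members higher at d3 and 0 at d6 with BMP2, 0 lower at d3, and 0 higher in the interactions at d3 and d6. The interaction at d3 also fell to 0 higher with the replicate block and with median scaling, and the replicate block moved no other count by over 1.5 times. Quantile normalization left 1 higher in the interaction at d6. With values under 50 set to 50, 4 were higher at d6 with BMP2, among them *Epas1* with the limit given above. Averaging probe sets gave 1 lower in the interaction at d3. Leaving out dim probe sets, or trend and robust estimation, gave 1 lower at d0. The adjusted p alone, added after seeing the data, gave 13 higher and 2 lower at d3 with BMP2, 10 higher at d6, and 3 higher and 1 lower in the interaction at d3.

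Without 1 array each, counts ranged from 0 to 1 lower at d0, from 1 to 3 higher at d3 and 0 to 2 higher at d6 with BMP2, from 0 to 2 higher and 0 to 1 lower in the interaction at d3, and from 1 to 3 higher in the interaction at d6. For named members, 1210 alternatives over 80 results gave 0 reversals and 75 lost calls. Of these, 21 came from fitting only the compared groups, which leaves fewer arrays. *Slc2a3* and *Pfkfb3* are limited by signal near or below the median value.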
